A study of Mus musculus with 6 samples.

Results

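Complement is a cascade of plasma and locally made proteins that tags targets for uptake by phagocytes. C1q, a bundle of A, B and C chains encoded by C1qa, C1qb and C1qc, starts the classical pathway, C3 is the component on which all pathways meet, factor B (Cfb) and properdin (Cfp) serve the alternative pathway, and the fragments C3a and C5a signal through C3AR1 and C5AR1. In the central nervous system microglia are the main source of C1q and carry both receptors. The genes examined here were 9 complement components and receptors, taken by name: C1qa, C1qb, C1qc, C3, C4b, C3ar1, C5ar1, Cfb and Cfp. Every probe set that the platform annotation gives to 1 of these symbols alone was used, which gave 13 of the 45037 probe sets other than Affymetrix controls. They measure 7 of the 9 genes. C3 and C4b had no probe set of 1 symbol in the annotation used here, and these 2 genes are not analysed here.

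The arrays compared microglia of SOD1 G93A mice, transgenic at high copy number for a human SOD1 allele of familial amyotrophic lateral sclerosis, with those of WT littermates, 3 arrays per genotype. All were B6SJL males of 90 days,  and the transgene, whose own human promoter drives it broadly, is not restricted to microglia. CD11b-positive cells were sorted from the dissociated lumbar cord, and RNA of 6 or more mice was pooled for every array, so errors describe pools and not single animals. The values are log2 signals of Affymetrix arrays, in which 1 unit is a doubling of signal. Levels of different probe sets cannot be set against each other on such arrays. Genotypes were compared with limma, and a probe set passed where its p, adjusted by Benjamini-Hochberg across the 45037, was under 0.05.

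Defining markers of microglia were bright. Cx3cr1, the fractalkine receptor gene, had a mean log2 signal of 13.58 in SOD1 G93A and 13.62 in WT arrays, and the mean of 13 microglial markers was 11.35 ± 0.11 and 11.25 ± 0.11 (SD, n = 3 each; exact two-sided permutation test, p = 0.3). Of the 13, 2 passed as higher (Trem2 and Fcrls, log2 fold changes 1.28 and 1.07) and 1 as lower (Sall1, -0.83). Over all 18193 genes, 3.53% passed as higher and 2.08% as lower. The sort was not of microglia alone. The neutrophil genes S100a8 and S100a9, named after their values were seen, had 14.14 and 14.00 in SOD1 G93A and 14.49 and 14.37 in WT arrays, near the highest signal of any array (14.59), and none of the 10 measured neutrophil markers was below 5, where signal lies close to background. Lower mean log2 signals in SOD1 G93A than in WT arrays were found for 8 monocyte markers (9.23 ± 0.25 and 10.10 ± 0.30), 10 border macrophage markers (8.59 ± 0.18 and 9.08 ± 0.17), 10 astrocyte markers (6.68 ± 0.27 and 7.48 ± 0.32), 9 oligodendrocyte markers (7.90 ± 0.15 and 8.45 ± 0.19), 10 neurone markers (4.91 ± 0.09 and 5.55 ± 0.12) and 9 lymphocyte and natural killer cell markers (5.23 ± 0.06 and 5.49 ± 0.08), each with p = 0.1 by the exact two-sided permutation test (SD, n = 3), the smallest p that 3 arrays against 3 allow. In all 9 lists were compared, and no adjusted value could pass. In the lymphocyte and natural killer cell list 1 of 9 genes passed as lower (Klrd1, log2 fold change -1.79) and 0 as higher. The median log2 fold change of that list was -0.04, so its lower mean does not describe the list as a whole. The summed signal of the monocyte list was 8286 to 13460 in SOD1 G93A and 14370 to 24515 in WT arrays, and 5 of its 8 genes passed as lower. Its brightest gene, Chil3, weighs most in this sum and did not pass (limma adjusted p = 0.178). For neutrophils the summed signal was 54837 to 76959 and 66800 to 107512, with 2 of 10 lower (mean log2 signal 10.97 ± 0.32 and 11.58 ± 0.50, exact two-sided permutation test, p = 0.3). The 10 endothelial and mural markers were at 6.61 ± 0.19 and 6.32 ± 0.06 (p = 0.1 by the same exact test). For Gapdh, the log2 signal at the 3' end less that at the 5' end, a measure that grows as RNA copies get shorter, was 4.12 ± 0.59 in SOD1 G93A and 4.89 ± 0.11 in WT arrays (SD, n = 3; exact two-sided permutation test, p = 0.1). The part of other cells in the results below was not tested. In bulk RNA, fewer cells of a type and less RNA per cell cannot be told apart.

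The receptor gene C3ar1 rose in SOD1 G93A arrays by all 3 of its probe sets, and C1qb by 1 of 3. The other 2 of C1qb had log2 fold changes of -0.19 each and did not pass. No probe set of the 7 genes passed as lower. Of the 13 probe sets, 4 were higher, all 3 of C3ar1 and 1 of the 3 of C1qb, and 9 did not pass, which compares with 2.71% of all probe sets called higher and 1.93% called lower. These 4 probe sets belong to 2 genes. The median log2 fold change of the 13 was 0.42, against 0.0032 over all probe sets. The genotypes did not overlap in 9 of the 13, 7 of them higher and 2 lower, against 13.4% of all probe sets higher and 11.3% lower. The methods' t-test, of unequal variance, left 0 of the 13 after Benjamini-Hochberg adjustment, as it did 0 of all probe sets, and gave 6 of the 13 at an unadjusted p under 0.05, against 12.6% of all. At the fold threshold of the methods (1.75) with an unadjusted p under 0.05, the methods' t-test gave 3, of C1qb and C3ar1, against 1.77% of all probe sets.

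**Figure D1:**
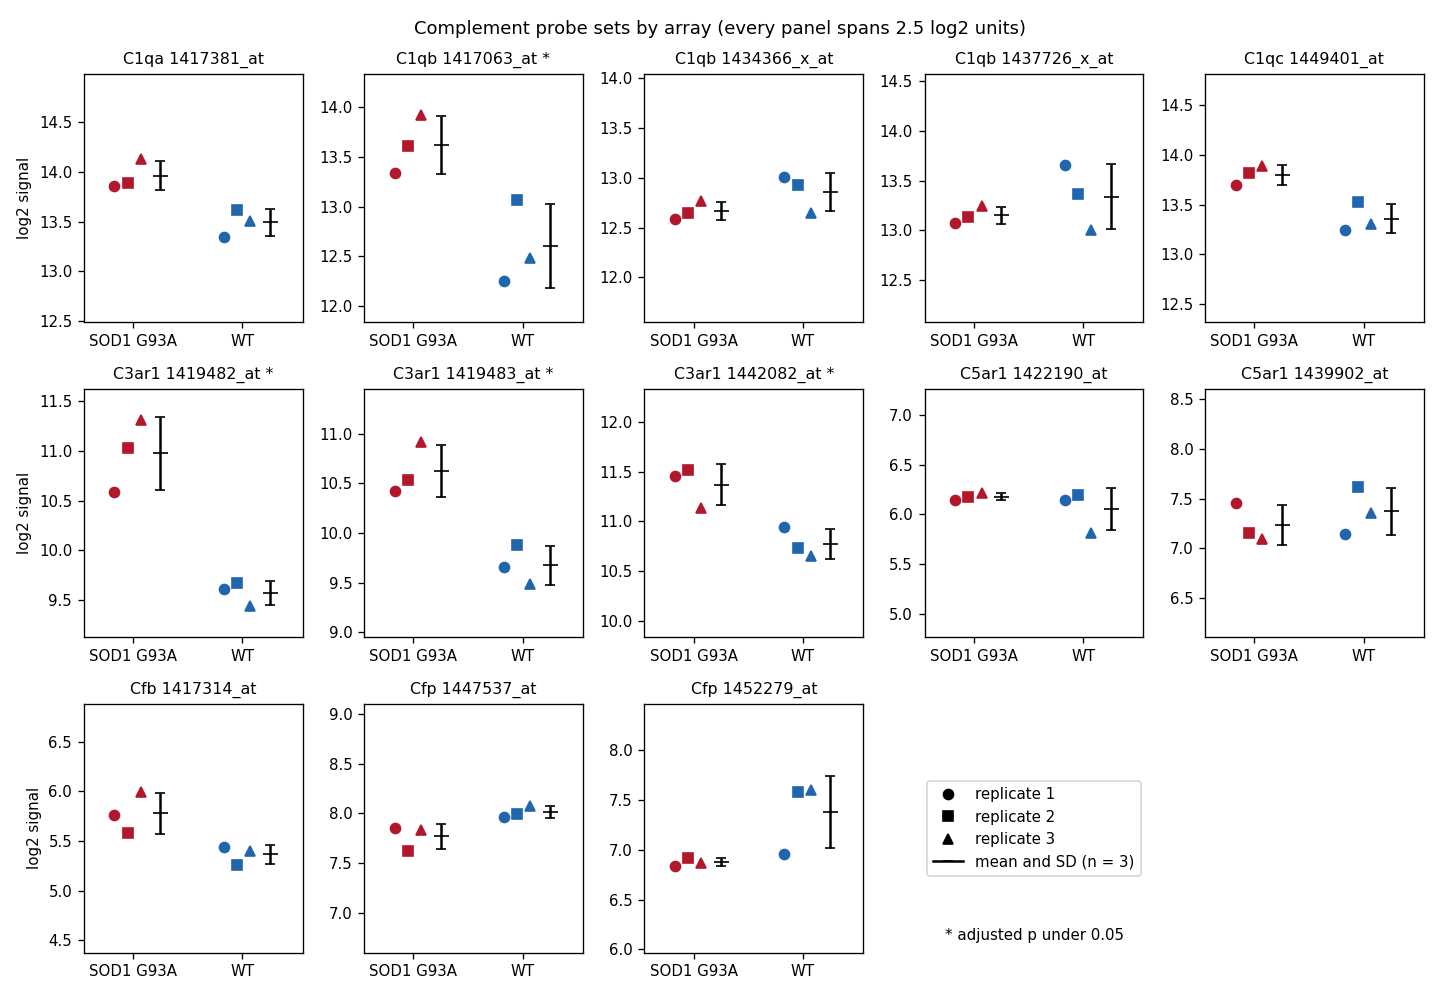
Log2 signal (vertical axes, every panel spanning 2.5 units) of the 13 complement probe sets on each of the 3 SOD1 G93A arrays (red) and 3 WT arrays (blue). Bars are the mean and SD (n = 3), symbols mark the replicate number and a star marks an adjusted p under 0.05 from limma, which the 3 probe sets of C3ar1 and 1 of C1qb reached.

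C3ar1 encodes the receptor for the anaphylatoxin C3a, a G-protein-coupled receptor of myeloid cells. Its probe set 1419482_at had log2 signals of 10.59, 11.03 and 11.31 in SOD1 G93A arrays, against 9.61, 9.68 and 9.44 in WT arrays. Every SOD1 G93A array lay above every WT array. This was a 2.64-fold rise (log2 fold change 1.40, standard error (SE) 0.18, limma adjusted p = 0.00543). The probe set 1419483_at had 10.42, 10.54 and 10.91 in SOD1 G93A and 9.66, 9.88 and 9.49 in WT arrays, a 1.93-fold rise (log2 fold change 0.95, SE 0.16, adjusted p = 0.0154). The third, 1442082_at, had 11.46, 11.51 and 11.13 in SOD1 G93A and 10.94, 10.73 and 10.65 in WT arrays, a 1.51-fold rise (log2 fold change 0.60, SE 0.14, adjusted p = 0.046). The genotypes did not overlap in any of the 3. The SOD1 G93A array of replicate 3 was the highest by 1419482_at and 1419483_at and the lowest of its genotype by 1442082_at. The log2 difference between 1419482_at and 1442082_at was -0.39 ± 0.53 in SOD1 G93A and -1.20 ± 0.14 in WT arrays (SD, n = 3), a difference of 0.81 between the changes of the 2 probe sets (exact two-sided permutation test, p = 0.1, a comparison chosen after the values were seen). With 1 array left out in turn, 1419482_at passed in all 6 fits (adjusted p between 0.00139 and 0.036). The call of 1419483_at was lost without SOD1 G93A replicate 2 or 3 or WT replicate 3 (adjusted p = 0.0567, 0.0563 and 0.0696), and that of 1442082_at without SOD1 G93A replicates 1, 2 and 3 or WT replicates 2 and 3 (adjusted p = 0.0914, 0.153, 0.0581, 0.135 and 0.157). With the Gapdh 3' and 5' measure as a covariate in the fit, the log2 fold changes were 0.97, 0.61 and 0.86 and none of the 3 passed (limma, adjusted p = 0.0791, 0.187 and 0.0888), in a fit that called 88 of all probe sets higher and 41 lower in place of 1221 and 868. The measure did not overlap between genotypes (3.47 to 4.63 in SOD1 G93A and 4.79 to 5.01 in WT arrays). So this fit, here and below, cannot cleanly tell it from genotype.

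C5ar1, the receptor for C5a and a receptor of neutrophils as well as microglia, did not pass. By 1439902_at it had log2 signals of 7.46, 7.15 and 7.09 in SOD1 G93A and 7.14, 7.62 and 7.36 in WT arrays, a log2 fold change of -0.14 (95% interval -0.49 to 0.21, adjusted p = 0.692). By 1422190_at it had 6.15, 6.18 and 6.22 in SOD1 G93A and 6.15, 6.20 and 5.81 in WT arrays, a log2 fold change of 0.13 (95% interval -0.16 to 0.41, adjusted p = 0.649). The genotypes overlapped in both probe sets, and the intervals reach no further than 0.49 in either direction. The mean of 1422190_at (6.12) lay near the array medians (5.93 to 5.97), and whether so dim a signal follows the RNA level was not tested. The mean log2 signal of the C3ar1 probe sets minus that of the C5ar1 probe sets was 4.28 ± 0.23 in SOD1 G93A and 3.30 ± 0.12 in WT arrays, so that the change of C3ar1 exceeded that of C5ar1 by 0.99 (SD, n = 3; exact two-sided permutation test, p = 0.1, a comparison chosen after the values were seen).

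**Figure D2:**
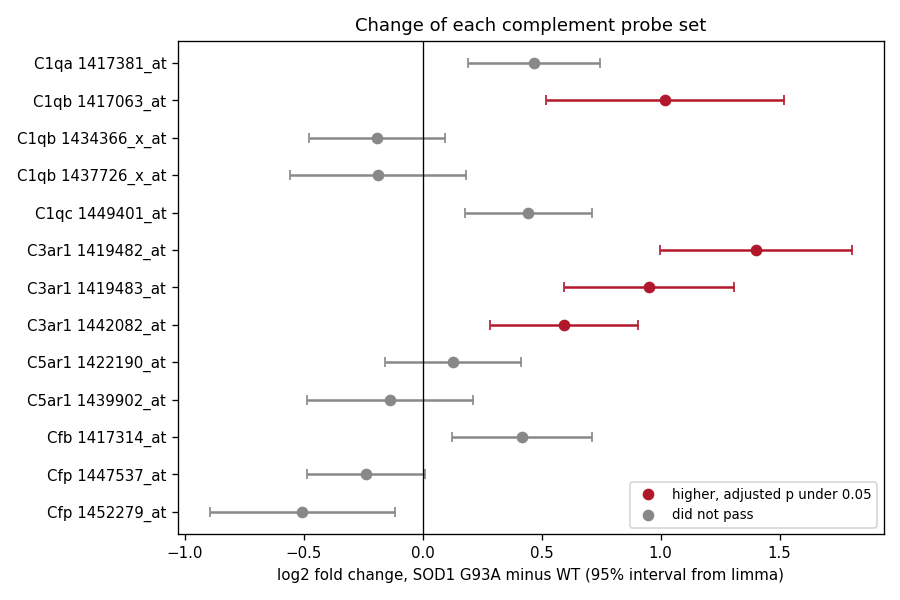
Log2 fold change (horizontal axis, SOD1 G93A minus WT) of each of the 13 probe sets with its 95% interval from limma. Red points passed at an adjusted p under 0.05 and grey points did not, and values range from 1.40 for 1419482_at of C3ar1 to -0.51 for 1452279_at of Cfp.

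The C1q chain genes are neighbours on chromosome 4 of the mouse (GRCm38.p6) and gave bright signals. C1qa, by its 1 probe set, had log2 signals of 13.86, 13.89 and 14.13 in SOD1 G93A and 13.35, 13.62 and 13.51 in WT arrays. C1qc had 13.69, 13.82 and 13.89 in SOD1 G93A and 13.25, 13.53 and 13.30 in WT arrays. For both, every SOD1 G93A array lay above every WT array, yet neither passed in the reported fit. The log2 fold change of C1qa was 0.47 (95% interval 0.19 to 0.75, adjusted p = 0.0698) and that of C1qc was 0.44 (95% interval 0.18 to 0.71, adjusted p = 0.0719). Both passed with array weights (limma adjusted p = 0.0461 for C1qa and 0.0359 for C1qc) and with a replicate block (0.0364 and 0.0402). Neither passed under any other alternative. With 1 array left out, adjusted p was between 0.0776 and 0.216 for C1qa and between 0.0732 and 0.217 for C1qc. With the Gapdh covariate the log2 fold changes were 0.26 and 0.30 (limma adjusted p = 0.508 and 0.453). These signals lie close to the highest of each array (14.51 to 14.59), and whether they still follow the RNA level was not tested.

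C1qb was measured by 3 probe sets that did not move together. By 1417063_at it had log2 signals of 13.34, 13.61 and 13.92 in SOD1 G93A and 12.26, 13.07 and 12.49 in WT arrays, a 2.03-fold rise (log2 fold change 1.02, SE 0.22, limma adjusted p = 0.0375). By 1434366_x_at it had 12.59, 12.65 and 12.77 in SOD1 G93A and 13.01, 12.92 and 12.65 in WT arrays (log2 fold change -0.19, 95% interval -0.48 to 0.09, adjusted p = 0.468). By 1437726_x_at it had 13.07, 13.13 and 13.24 in SOD1 G93A and 13.65, 13.36 and 12.9996 in WT arrays (log2 fold change -0.19, 95% interval -0.56 to 0.18, adjusted p = 0.595). The suffix x_at marks a probe set with probes that may also bind other transcripts. WT replicate 1 was the lowest array of all 6 by 1417063_at and the highest of all 6 by both x_at probe sets. The log2 signal of 1417063_at minus the mean of the x_at probe sets was 0.71 ± 0.20 in SOD1 G93A and -0.49 ± 0.52 in WT arrays (SD, n = 3), a difference of 1.21 between their changes (exact two-sided permutation test, p = 0.1). Against the mean of C1qa and C1qc, the change of 1417063_at was larger by 0.56 (exact two-sided permutation test, p = 0.1), and both comparisons were chosen after the values were seen. The call of 1417063_at was lost without SOD1 G93A replicate 2 or 3 or WT replicate 1 or 3 (adjusted p = 0.118, 0.136, 0.0642 and 0.135) and with the Gapdh covariate (log2 fold change 0.57, adjusted p = 0.357). So the rise of C1qb rests on 1 of its 3 probe sets.

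**Figure D3:**
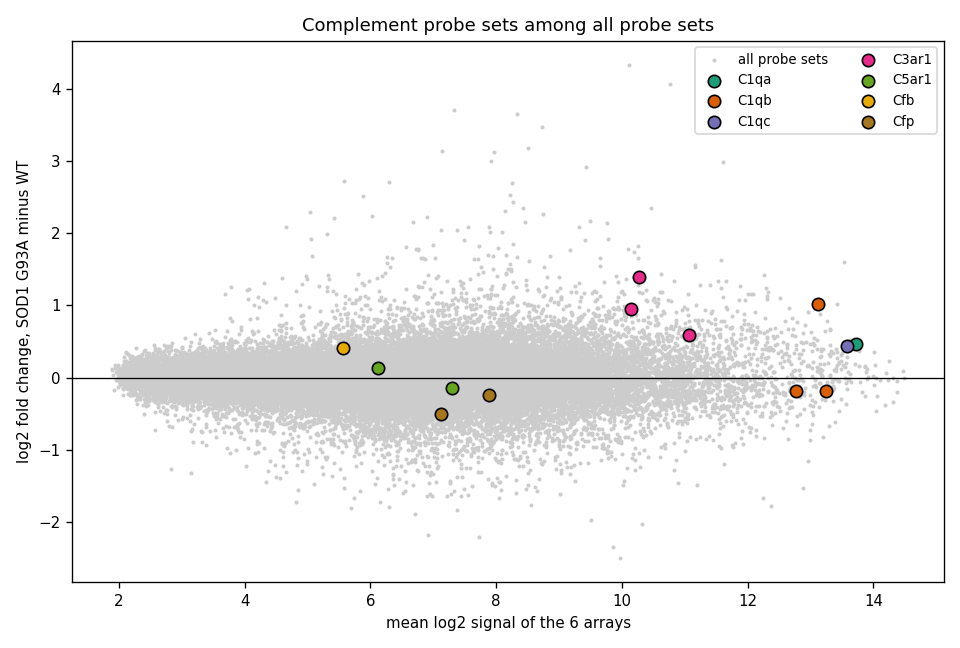
Log2 fold change (vertical axis, SOD1 G93A minus WT) against the mean log2 signal of the 6 arrays (horizontal axis) for all 45037 probe sets (grey) and the 13 complement probe sets (coloured by gene). The C1q probe sets lie at the bright end, with 1417063_at of C1qb at 1.02 and both its x_at probe sets at -0.19. Cfb is the dimmest of the 13.

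The promoters of the 2 genes with a probe set that passed are shown to place them on the genome and to search them for sites of factors that act in myeloid and interferon responses. They are the 250 bases before the transcript start in RefSeq (GRCm38.p6), 5′ to 3′ on the gene's own strand, with matches in capitals.
C1qb, chr4:136886201-136886450, minus strand: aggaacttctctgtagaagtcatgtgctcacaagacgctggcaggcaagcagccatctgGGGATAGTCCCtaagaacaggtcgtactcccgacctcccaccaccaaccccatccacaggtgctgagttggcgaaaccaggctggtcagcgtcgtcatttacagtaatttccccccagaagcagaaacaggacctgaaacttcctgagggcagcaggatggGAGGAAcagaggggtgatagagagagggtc
C3ar1, chr6:122856158-122856407, minus strand: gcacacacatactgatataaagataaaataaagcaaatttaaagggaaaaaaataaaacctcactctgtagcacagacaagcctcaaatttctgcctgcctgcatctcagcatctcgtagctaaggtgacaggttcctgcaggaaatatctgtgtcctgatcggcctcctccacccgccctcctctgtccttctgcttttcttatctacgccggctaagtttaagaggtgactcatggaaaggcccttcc
Both strands were searched for 4 motifs, whose shares among 32851 promoters of the same length are given in turn. The PU.1 core GAGGAA (23.3% of promoters) was found in C1qb, from 30 to 25 bases before the start. The NF-kappaB form (17.6%) was found there on each strand in overlapping positions, from 191 to 182 and from 190 to 181 bases before the start. Neither the interferon-stimulated response element (2.98%) nor the gamma-activated site TTCNNNGAA (7.02%) was found in C1qb, and none of the 4 was found in C3ar1. Among genes that did not pass, the promoter of C1qc held the PU.1 core and the NF-kappaB form too, and those of C5ar1 and Cfp held none of the 4. A match is a run of letters, and binding was not measured.

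Of the alternative pathway, Cfb, which encodes the protease subunit of its C3 convertase, had log2 signals of 5.76, 5.59 and 6.00 in SOD1 G93A and 5.44, 5.26 and 5.39 in WT arrays. The genotypes did not overlap, but the difference did not pass (log2 fold change 0.42, 95% interval 0.12 to 0.71, adjusted p = 0.112), and these signals are dim. Cfp encodes properdin, which stabilises that convertase and is made by neutrophils and monocytes. Its probe set 1452279_at had 6.84, 6.92 and 6.87 in SOD1 G93A and 6.96, 7.58 and 7.60 in WT arrays (log2 fold change -0.51, 95% interval -0.89 to -0.12, adjusted p = 0.141), and 1447537_at had 7.85, 7.62 and 7.84 in SOD1 G93A and 7.96, 7.99 and 8.08 in WT arrays (log2 fold change -0.24, 95% interval -0.49 to 0.01, adjusted p = 0.276). In both, every SOD1 G93A array lay below every WT array. WT replicate 1 lay nearest to the SOD1 G93A arrays, and without it 1452279_at passed as lower (log2 fold change -0.72, adjusted p = 0.0134). With any other 1 array left out, 1452279_at did not pass (limma adjusted p between 0.227 and 0.362).

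Beyond these genes, 49 others of the complement system were listed by role, of which 39 had a probe set, each gene being measured by its brightest. Of the 39, 2 rose (Itgax and Masp1) and 3 fell (Cd55, Cd93 and Cfhr2), and 34 did not pass, against 3.53% of 18193 genes higher and 2.08% lower. Their median log2 fold change was -0.0044. By role, 0 of 3 classical pathway genes and 0 of 6 terminal pathway genes passed, with log2 fold changes between -0.27 and 0.22. Of the 6 terminal genes, 5 had a mean log2 signal below 6, and 1 of them lay below 5, close to background. Of the 3 classical genes 2 lay below 6, 1 of them below 5, and of the 8 lectin genes 5 lay below 6, 3 of them below 5. In all, 1 of 8 lectin pathway genes rose, 2 of 13 regulators fell, and of 9 receptors and binding proteins 1 rose and 1 fell. The 10 genes without a probe set of their own in the annotation are not analysed here.

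Masp1 encodes a serine protease of the lectin pathway, which mannose-binding lectin and ficolins bring to sugar-bearing surfaces. Its brightest probe set, 1438602_s_at, had log2 signals of 9.39, 9.22 and 8.69 in SOD1 G93A and 8.22, 7.75 and 7.67 in WT arrays, a 2.33-fold rise (log2 fold change 1.22, SE 0.21, limma adjusted p = 0.0163). Of its 5 probe sets 3 rose, the others being 1425985_s_at (1.05) and 1438603_x_at (0.54), and the other 2, dim with means below 5, did not pass (0.36 and 0.06). The call of 1438602_s_at was lost without SOD1 G93A replicate 2 or WT replicate 2 or 3 (adjusted p = 0.0738, 0.0673 and 0.0753) and was kept with the Gapdh covariate (adjusted p = 0.0227). No recognition molecule of that pathway passed in the reported fit: Mbl1, Mbl2, Fcna, Fcnb, Colec10 and Colec11 had log2 fold changes between -0.59 and 0.19. Colec10, Mbl2, Colec11 and Mbl1 were dim, with mean log2 signals of 2.58, 3.73, 5.20 and 5.65, so a change could be missed. Fcnb passed as lower without both arrays numbered 1 (limma adjusted p = 0.00668).

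Among regulators, Cd55 fell. It encodes decay-accelerating factor, a membrane protein that takes C3 convertases apart. By 1418762_at it had log2 signals of 5.09, 4.999 and 5.29 in SOD1 G93A and 5.99, 6.01 and 5.99 in WT arrays, a log2 fold change of -0.87 (SE 0.11, limma adjusted p = 0.0056). These signals are dim too, with a mean of 5.56, so the size of the fall is uncertain. Of its 3 probe sets 2 passed, the other at -0.91, and the last had -0.70 (adjusted p = 0.119), though both of these had mean signals below 5. The call held with each array left out in turn (adjusted p between 0.0103 and 0.0348) and with the Gapdh covariate (adjusted p = 0.0492). Cr1l, which encodes Crry, the widely expressed rodent inhibitor of C3 convertases, had a log2 fold change of 0.04 by its brightest probe set, while its others had -0.43 (1430131_at, adjusted p = 0.171) and -0.69 (1438920_x_at, adjusted p = 0.195) and did not pass. Cd46, dim at a mean log2 signal of 5.33, and Cd59a had 0.02 and 0.08. Cfhr2 fell by 0.76 on the log2 scale by 1425823_at (adjusted p = 0.0262), itself dim with a mean of 5.94, and had -0.07 by its other probe set, of signal below 5. Its call was lost without SOD1 G93A replicate 2 or 3 or WT replicate 2 (adjusted p = 0.102, 0.0931 and 0.0952) and with the Gapdh covariate (adjusted p = 0.2). Clu, which encodes clusterin, an inhibitor of the terminal complex also made by astrocytes, had -1.14 and did not pass (adjusted p = 0.237). By the same probe set, Clu passed as lower with a replicate block (limma adjusted p = 0.00221) and without both arrays numbered 1 (adjusted p = 0.0158). It did not pass with any 1 array left out.

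Among receptors, Itgax, which encodes the alpha chain of complement receptor 4, had the largest change of the 39, with log2 signals of 10.32, 11.07 and 11.27 in SOD1 G93A and 7.80, 8.04 and 8.05 in WT arrays (log2 fold change 2.92, SE 0.22, limma adjusted p = 0.000762). The alpha chain of complement receptor 3, Itgam, the sort marker, had -0.02 and their shared beta chain, Itgb2, had 0.67 (adjusted p = 0.163). Itgb2 passed as higher with a replicate block (limma adjusted p = 0.0132) and without both arrays numbered 1 (adjusted p = 0.041). It did not pass with any 1 array left out. Cd93, which encodes a C1q receptor-like protein of endothelial and myeloid cells, fell by 0.90 on the log2 scale by 1456046_at (adjusted p = 0.0302), and its other 4 probe sets had -0.99, -0.52, -0.32 and -0.01 and did not pass. Its call was lost without SOD1 G93A replicate 1 or 3 or WT replicate 2 or 3 (adjusted p = 0.0591, 0.112, 0.104 and 0.115) and with the Gapdh covariate (adjusted p = 0.241). Vsig4, the macrophage receptor for C3b, had -0.78 with genotypes that did not overlap and did not pass (adjusted p = 0.0593), though it did as lower with 1 probe set a gene (adjusted p = 0.0434) and with a replicate block (adjusted p = 0.00653). Vsig4 did not pass with any 1 array left out (limma adjusted p between 0.0731 and 0.156) or with the Gapdh covariate (adjusted p = 0.178). Its signals are dim, with a mean of 5.14, so the size of the difference is uncertain. The C1q-binding proteins C1qbp and Calr, named after their values were seen, did not pass by their brightest probe sets (0.45 each, adjusted p = 0.0914 and 0.0537), while the other probe set of C1qbp rose by 1.002 (adjusted p = 0.0115) and both others of Calr by 0.59 and 0.50 (adjusted p = 0.0202 and 0.0424). The Calr probe sets that rose are both x_at, as is the brightest of C1qbp, so their probes may also bind other transcripts.

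**Figure D4:**
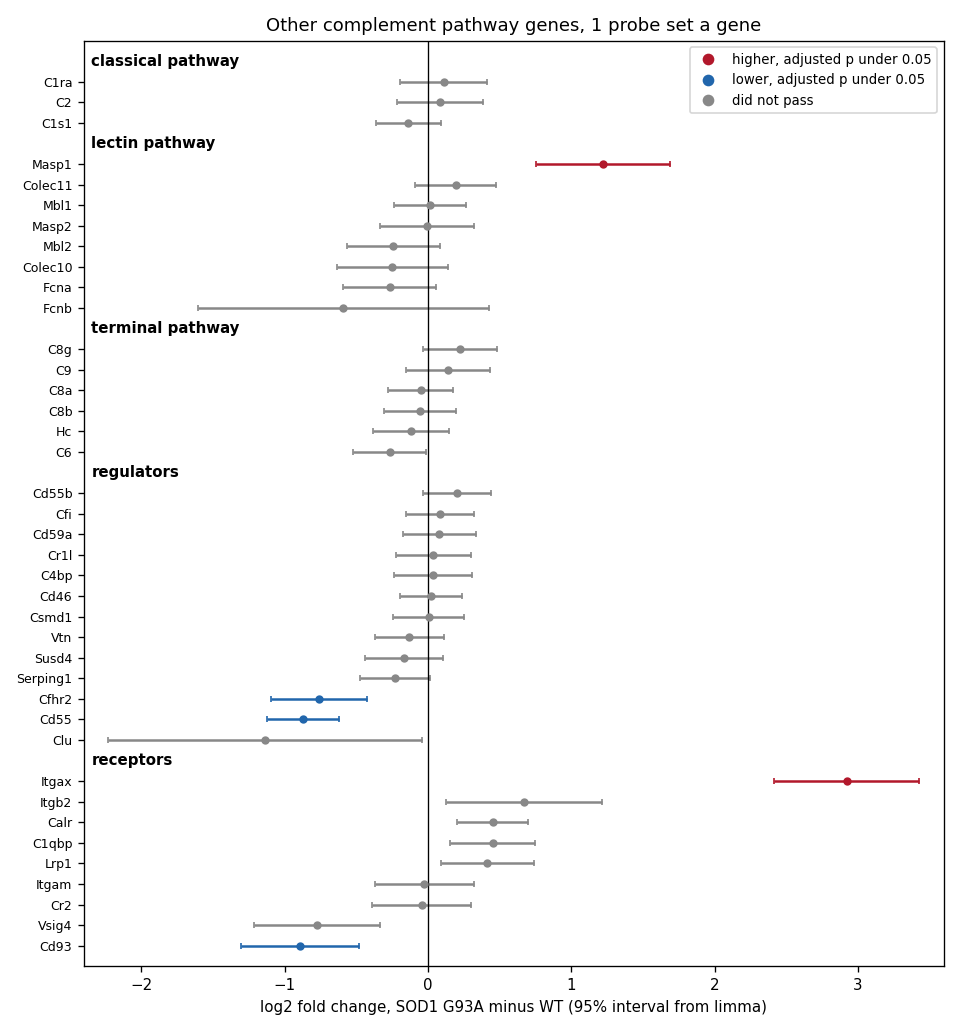
Log2 fold change (horizontal axis, SOD1 G93A minus WT) with its 95% interval from limma of 39 other complement genes, 1 probe set a gene, grouped by role. Red genes rose and blue genes fell at an adjusted p under 0.05, namely Itgax (2.92), Masp1 (1.22), Cfhr2 (-0.76), Cd55 (-0.87) and Cd93 (-0.90).

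Genes with a pattern like that of C3ar1 were sought over the 6 arrays by the root mean square difference of profiles centred on their own mean, with 1442082_at, its brightest probe set, and 18192 other genes. The nearest were Slc39a2 (0.039 log2 units), Aig1 (0.049), Rpl35 (0.077), Snx24 (0.084) and Htra3 (0.084). Of the 6 others of the 7 genes, C1qc was nearest, at rank 1410 (0.23), with Cfb and C1qa at ranks 2774 and 2776 (0.26 each). C5ar1, C1qb by its brightest probe set and Cfp came at ranks 14511, 14632 and 15451. This order rests on 1 of the 3 probe sets of C3ar1 and describes 6 arrays.

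**Figure D5:**
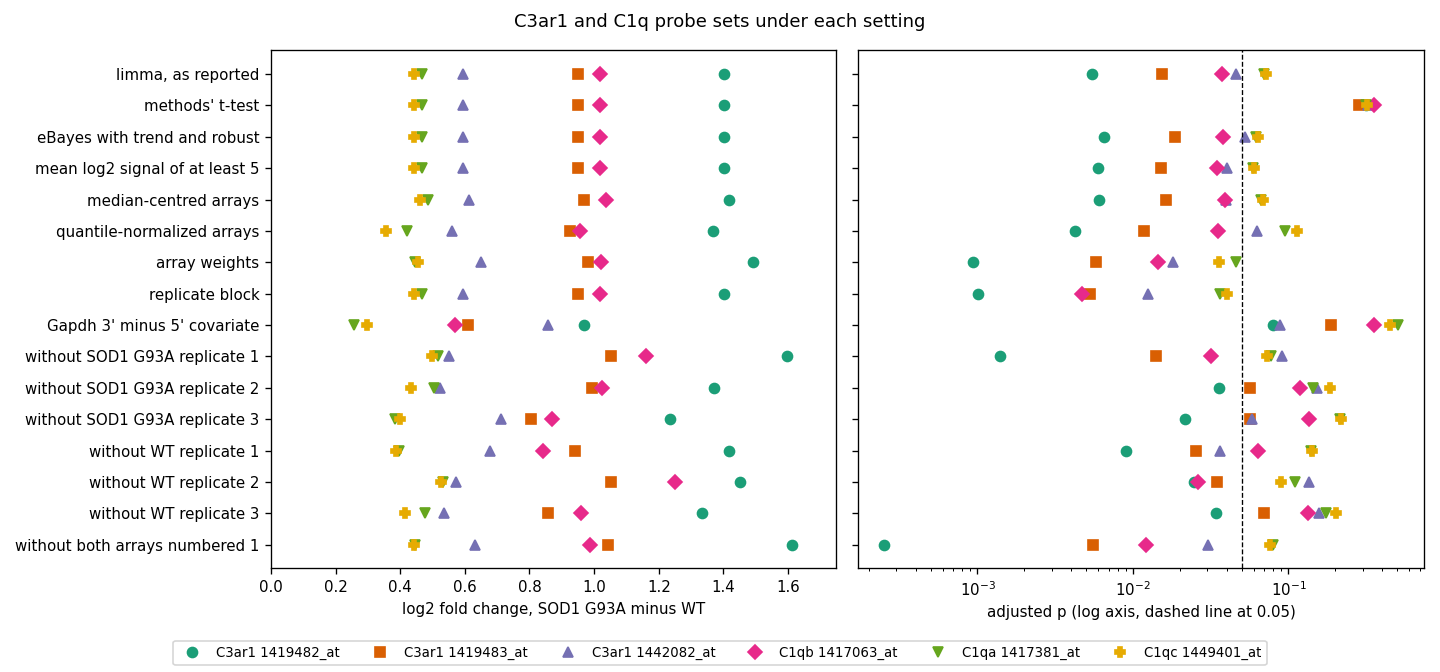
Log2 fold change (left, SOD1 G93A minus WT) and adjusted p (right, log axis with a dashed line at 0.05) of 6 probe sets of C3ar1, C1qb, C1qa and C1qc. The reported limma fit and each alternative other than 1 probe set a gene are shown. All 6 stay above 0 in each, 1419482_at of C3ar1 stays left of the line with any 1 array left out, and none of the 6 is left of it under the methods' t-test or with the Gapdh covariate.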

How the data were processed

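RNA of CD11b-positive lumbar cells was measured on 6 Affymetrix mouse expression arrays. The deposited table gives a log2 signal for every probe set. The submitters' processing notes name Partek and RMA, whereas the methods of the paper name Affymetrix MAS software. Leaving out 64 control probe sets, 45037 were fitted on genotype with lmFit and eBayes of limma 3.58.1 (R 4.3.3). Probe sets were named from the platform annotation, in which 34945 have 1 symbol, 932 several and 9160 none. A gene outside the 7 was measured by its brightest probe set. Single measures were compared by exact permutation tests. The fit was tested on simulated data. The members, the lists and the rules for the genes named (all member probe sets, all other complement genes that passed and the 4 largest differences among those that did not) were chosen with earlier results of these data known. Of the marker lists, only summaries, defining genes, the microglial markers that passed, Klrd1 and Chil3 are given. Precision is limited by the number of arrays. Alternatives were a t-test, other limma options, scalings and filters, a replicate block, a Gapdh covariate and leaving arrays out. The methods state that litters were matched between genotypes, but not that replicate numbers mark them. Figures were made with Python 3.11.15.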

Additional observations from a re-analysis of the deposited data

How the results depend on the processing

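Of 16 alternatives, each that gave them a value kept the direction of the 4 probe sets that passed. Of the 13, 4 were higher and 0 lower as reported. The higher count was 0 with the methods' t-test, 0 with the Gapdh 3' minus 5' covariate and 1 with 1 probe set a gene. It was 6, with 1 lower, with array weights, C1qa and C1qc being added as higher and 1452279_at of Cfp as lower, as with the replicate block. It was 1 to 3 with 1 array left out, with 0 to 1 lower. Without both arrays numbered 1 it was 4, with 1 lower. Among other complement genes (2 higher and 3 lower) the counts were 0 and 0 with the t-test, 2 and 1 with the covariate, 5 and 3 with array weights, 5 and 5 without both arrays numbered 1, 3 and 4 with 1 probe set a gene (Vsig4 added as lower), 3 and 3 with a mean signal of at least 5 and with median-centred arrays, and 1 to 3 higher and 1 to 3 lower with 1 array left out. Over all probe sets (1221 and 868), they were 0 and 0 with the t-test, 88 and 41 with the covariate, 1968 and 1581 with array weights, 835 and 507 with 1 probe set a gene, 1835 and 1961 without both arrays numbered 1, and 333 to 1230 higher and 146 to 1178 lower with 1 array left out. Same-numbered arrays correlated in their deviations from the genotype means by 0.44, 0.24 and 0.03, and were not taken as pairs because the third is under 0.1. Whether replicate 1 of each genotype shared handling or litters was not tested. Replicate 1 of each genotype correlated best with its own number, and SOD1 G93A replicate 3 did not. With a replicate block the counts were 6 higher and 1 lower of the 13, 4 and 5 of the other genes and 2246 and 2273 over all. Directions turned for 1437726_x_at of C1qb without both arrays numbered 1 (0.0074), and with the covariate for 1439902_at of C5ar1 (0.012) and 1437458_x_at of Clu (0.047), none of them called in the reported fit. Besides the losses given above, 1442082_at of C3ar1 did not pass with trend and robust (limma adjusted p = 0.0523) or quantile normalization (adjusted p = 0.0627). The causes were not tested.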

Other observations

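The second principal component of all probe sets (28.0% of the variance) separated replicate 1 of each genotype from the other arrays, and some complement genes did too. Clu was the highest of its genotype in replicate 1, with log2 signals of 9.20, 8.34 and 7.57 in SOD1 G93A and 10.55, 9.01 and 8.97 in WT arrays by 1437458_x_at, and its 3 other probe sets were highest there too. Fcnb, which encodes a ficolin of neutrophils and their precursors, was the lowest of its genotype in replicate 1, with 7.24, 8.14 and 8.20 in SOD1 G93A and 7.32, 9.18 and 8.84 in WT arrays. These genes were picked for this pattern after their values were seen, and what sets these arrays apart was not tested.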
